A study of Mus musculus with 6 samples.

Results

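Trp63 is 1 gene of the 21911 protein-coding genes on the chromosomes counted in 6 single-cell ATAC-seq libraries of the mouse olfactory epithelium. It was chosen by name, and its accessibility was read as cut sites (the 2 ends of each sequenced fragment) at its transcript starts and in 500 bp tiles from 100 kb upstream to 100 kb downstream. Of these, 3 libraries are uninjured and 3 were taken 24 h after methimazole, an olfactory toxicant given by intraperitoneal injection. All the mice carried a Krt5CreER driver and the Rosa26-LSL-YFP reporter on both alleles, so the driver and reporter are shared by the groups, and YFP-positive, propidium iodide-negative cells of the dorsal epithelium were sorted. Replicate 1 of each group was 8 weeks old, replicate 2 was 6 weeks old and replicate 3 was 6 to 7 weeks old. YFP marks cells that expressed the Krt5-driven recombinase and also their descendants.

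Trp63 encodes p63, a transcription factor of stratified epithelia and a relative of Trp73. An upstream promoter gives long isoforms with an N-terminal transactivation domain, and an internal promoter gives short (delta-N) isoforms that lack it. The short isoforms are the main form in basal cells, and in horizontal basal cells, the reserve stem cells of the olfactory epithelium, p63 is known for holding cells in the resting state. Accessibility is not expression, and neither RNA nor protein was measured here.

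In GRCm38 with GENCODE M21, Trp63 (ENSMUSG00000022510.14) lies on the plus strand of chromosome 16 from 25683763 to 25892102. Its 8 annotated transcripts begin at 3 positions. Trp63-206 starts at 25683763, and Trp63-202, Trp63-207 and Trp63-208 start at 25683765. These are the long starts, and windows of 1 kb to either side of them held the same cut sites. Trp63-201, Trp63-203, Trp63-204 and Trp63-205 share the short start at 25801916, which is 118 kb downstream. The locus spans 818 tiles, of which 148 were open, meaning that their mean was at least 5 times the median tile. That median was taken over the 4750521 of 5451055 tiles of the genome that held a cut site in any library. The open tiles form 58 merged regions.

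Of the locus, 10 stretches of 200 bp are shown: 1 from each of the 9 tiles that passed the test of injured against uninjured libraries, and 1 from the most open tile of the locus, which did not pass it. Each is the stretch with the most cut sites in its tile over all libraries, from the GRCm38 plus strand, with matches to the AP-1 motif (TGANTCA, searched on both strands) in capitals. The first 8 come from tiles that were higher after injury, and 5 of these stretches hold a match. The next comes from the tile that was lower, and the last from the most open tile.
Intron 1, chr16:25753735-25753934: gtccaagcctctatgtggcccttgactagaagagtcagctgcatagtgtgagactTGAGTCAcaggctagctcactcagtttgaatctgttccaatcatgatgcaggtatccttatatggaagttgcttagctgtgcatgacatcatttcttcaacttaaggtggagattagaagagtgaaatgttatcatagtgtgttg
Intron 3, chr16:25812107-25812306: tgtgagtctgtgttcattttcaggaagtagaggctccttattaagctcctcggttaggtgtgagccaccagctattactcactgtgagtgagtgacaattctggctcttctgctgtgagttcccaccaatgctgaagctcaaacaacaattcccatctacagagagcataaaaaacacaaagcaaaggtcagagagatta
Tile over exon 4, chr16:25820198-25820397: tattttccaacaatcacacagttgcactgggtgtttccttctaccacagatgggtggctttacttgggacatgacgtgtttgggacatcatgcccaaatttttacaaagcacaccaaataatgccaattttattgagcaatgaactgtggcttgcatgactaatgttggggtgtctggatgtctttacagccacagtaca
Intron 4, chr16:25835301-25835500: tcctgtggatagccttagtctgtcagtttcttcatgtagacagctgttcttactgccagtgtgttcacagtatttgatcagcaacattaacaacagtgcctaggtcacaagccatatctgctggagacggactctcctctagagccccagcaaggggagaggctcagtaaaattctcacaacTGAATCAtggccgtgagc
Downstream, chr16:25905299-25905498: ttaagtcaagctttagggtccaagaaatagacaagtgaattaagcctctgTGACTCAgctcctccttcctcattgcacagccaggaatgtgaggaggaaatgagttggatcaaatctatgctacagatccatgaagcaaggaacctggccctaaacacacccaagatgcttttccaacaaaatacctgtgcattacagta
Downstream, chr16:25905501-25905700: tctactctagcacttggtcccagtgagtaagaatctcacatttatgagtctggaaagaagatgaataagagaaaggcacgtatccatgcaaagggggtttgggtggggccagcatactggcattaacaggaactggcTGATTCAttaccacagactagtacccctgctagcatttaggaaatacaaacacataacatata
Downstream, chr16:25912296-25912495: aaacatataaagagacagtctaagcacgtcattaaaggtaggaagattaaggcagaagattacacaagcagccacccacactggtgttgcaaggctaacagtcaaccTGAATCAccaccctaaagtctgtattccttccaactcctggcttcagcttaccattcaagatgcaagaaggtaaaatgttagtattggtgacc
Downstream, chr16:25951623-25951822: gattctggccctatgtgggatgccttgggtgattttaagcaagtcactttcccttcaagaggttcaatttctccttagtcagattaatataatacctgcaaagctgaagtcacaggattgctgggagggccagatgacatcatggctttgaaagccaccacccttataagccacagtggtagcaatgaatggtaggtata
Intron 4, chr16:25850001-25850200: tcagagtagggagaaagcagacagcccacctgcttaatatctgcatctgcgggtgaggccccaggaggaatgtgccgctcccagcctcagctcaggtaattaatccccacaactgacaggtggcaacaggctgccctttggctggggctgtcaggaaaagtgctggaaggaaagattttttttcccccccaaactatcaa
Intron 1, chr16:25723167-25723366: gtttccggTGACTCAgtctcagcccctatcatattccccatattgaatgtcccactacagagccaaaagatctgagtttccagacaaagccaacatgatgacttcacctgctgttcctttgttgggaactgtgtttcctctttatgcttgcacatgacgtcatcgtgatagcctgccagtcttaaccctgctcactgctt

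The libraries held between 8100227 and 23937953 fragments. Barcodes with at least 2000 fragments numbered 454, 889 and 629 before injury and 1338, 420 and 746 after it (replicates in order, as in all lists that follow), and they carried 14825320 to 44875242 cut sites a library. CPM values are cut sites scaled to these totals. A count of 3 cut sites, the limit that a count of 0 allows, were worth 0.202 CPM in the smallest library and 0.0669 CPM in the largest. One barcode of injured replicate 2 held 1746401 fragments, which was 14.7% of that library, with 12.9% of its cut sites in open regions. Uninjured replicate 3 and injured replicate 3 shared 34 barcodes, or 5.41% of the smaller library, against 0 to 4 in every other pair of libraries. The barcodes found in more than 1 library included the large barcode of injured replicate 2, and the starts and the locus are also given without the 109 shared entries. Clustering without the Trp63 locus gave 12 clusters. Cluster 7 was neuron-like, with all 7 mature neuron markers and 7 immature neuron markers more than 1 log2 unit above the other cells, and 178 of its 379 cells came from injured replicate 3. Cluster 4 was immature neuron-like, clusters 6 and 10 sustentacular-like, and cluster 8 was unnamed. The remaining 7 clusters held 3625 of the 4476 barcodes, and the 9 horizontal basal cell markers stood at a median 0.0048 to 0.50 log2 above the other cells in each. They are called the remaining clusters below, because the 10 leading genes of cluster 1 included 1 ciliated cell marker (Dnah5), those of cluster 2 included 1 immune marker (Cd74), and neither included a basal cell marker. Clusters 1 and 2 were mostly uninjured and clusters 9 and 12 mostly injured, while 156 of the 168 cells of cluster 11 came from uninjured replicate 3.

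The short start was the more open of the 2 kinds of start in all 6 libraries. Its mean CPM was above that of 37.0% of all genes' most open starts, and that of the long starts above 28.0%. The window of the short start held 66, 115 and 165 cut sites before injury and 144, 44 and 104 after it. These counts correspond to 4.45, 3.50 and 5.23 CPM before injury and 3.21, 1.86 and 2.91 CPM after it. Each injured library was below each uninjured one. How many of all start windows separate in this way was not counted. On this scale start windows in general were lower after injury, as given below. The means were 4.39 ± 0.86 (SD, n = 3) and 2.66 ± 0.71 CPM. In edgeR's quasi-likelihood fit, which scales libraries by TMM over all start windows, the log2 difference (injured minus uninjured) was -0.44 ± 0.29 (SE), with an adjusted p of 0.403, so the window was not called. Of the 78198 start windows tested, 2.31% were called higher and 1.82% lower. Injured libraries held fewer of their cut sites at starts in general: scaled to total cut sites, the median of all windows was -0.25 and that of the short start -0.71 (adjusted p 0.078). Factors taken from 10 kb bins instead put the median of all windows at -0.51, and the short start was then called lower, at -0.97 with an adjusted p of 0.0112. With these factors 48% of all start windows were called lower and 1.85% higher. Scaled to total cut sites, 31.1% were called lower and 2.64% higher. The call at the short start therefore differed with the scaling, as did the share of all starts called lower. Leaving out injured replicate 2 moved the difference to -0.27, the smallest of the fits without 1 library, and none of these fits called the window. Without the shared barcodes it was -0.31 (adjusted p 0.572), with 4.06, 3.55 and 4.79 CPM before and 3.23, 2.24 and 2.96 CPM after injury.

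The long starts were much less open and showed no difference that passed the test. They held 13, 22 and 30 cut sites before injury and 37, 24 and 35 after it, or 0.877, 0.670 and 0.950 CPM and 0.825, 1.01 and 0.980 CPM. The groups overlapped. A 2 kb window at the median level of the genome's tiles with a cut site would hold 0.217 CPM, so the long starts were above it in each library. The edgeR log2 difference was 0.45 ± 0.43 (SE, adjusted p 0.583), and it turned to -0.09 with factors from 10 kb bins. Without the shared barcodes it was 0.33 (adjusted p 0.719).

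The share of start cut sites that fell at the short start does not depend on how libraries are scaled. It was 83.5%, 83.9% and 84.6% in the uninjured libraries and 79.6%, 64.7% and 74.8% in the injured ones. All 3 injured values lay below all 3 uninjured values, with means of 84.0 ± 0.54% and 73.0 ± 7.6% (SD, n = 3). The exact two-sided permutation p was 0.1, the smallest that 3 against 3 samples allow, so this design could not reach 0.05. Leaving out injured replicate 2 reduced the difference from -11.0 to -6.84 percentage points, and the difference was below 0 in all 13 alternatives. Without the shared barcodes the means were 83.7 ± 0.56% and 76.0 ± 3.2% (SD, n = 3), and the groups did not overlap there either.

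**Figure D1:**
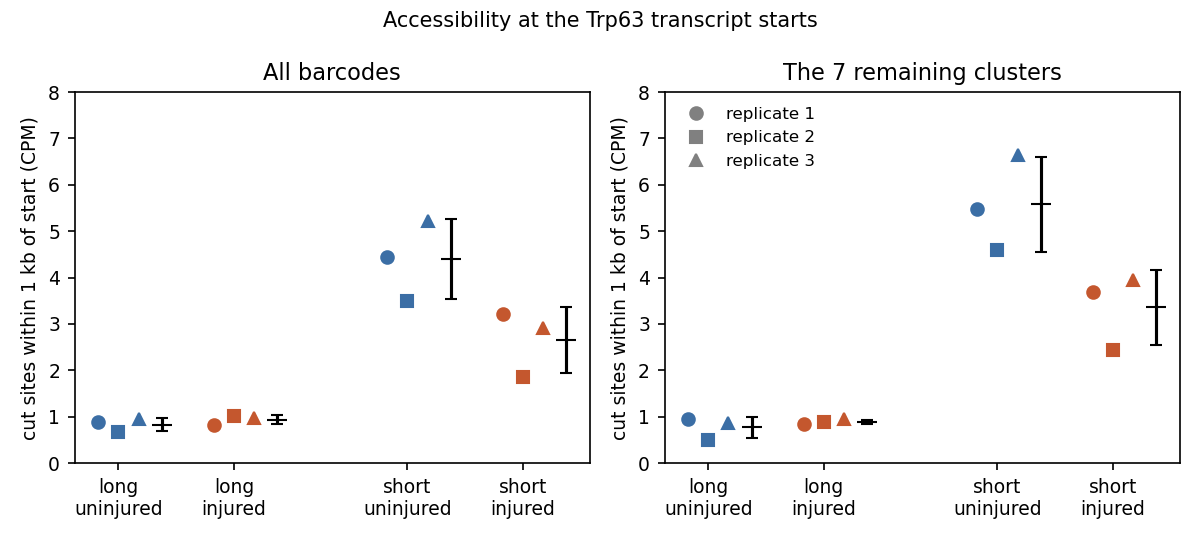
Cut sites within 1 kb of the long and short Trp63 starts, in CPM, for each library (points, shaped by replicate) with the mean and SD of 3 libraries (bars), over all barcodes (left) and in the 7 remaining clusters (right). At the short start the injured libraries sit between 1.86 and 3.21 CPM and the uninjured ones between 3.50 and 5.23 CPM over all barcodes, while the long starts overlap.

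In the remaining clusters the short start stood at 5.49, 4.59 and 6.65 CPM before injury and 3.69, 2.43 and 3.94 CPM after it (exact permutation p = 0.1). The groups did not overlap there either, and the edgeR log2 difference was -0.48 with an adjusted p of 0.308. How many of all start windows do not overlap in these clusters was not counted. The groups took their cells mostly from different clusters: uninjured replicates 1 and 2 from clusters 1 and 2, uninjured replicate 3 from clusters 3 and 11, and the injured replicates from clusters 5, 9 and 12. Pooled over libraries, the short start was highest in clusters 2 and 11, at 6.47 and 6.45 CPM. Clusters 1, 3, 5, 9 and 12 lay between 3.49 and 4.09 CPM. The neuron-like cluster 7 stood at 0.347 CPM (7 cut sites), the sustentacular-like cluster 6 at 0.737 CPM (4 cut sites), and cluster 10 held none. In clusters 4, 6, 7 and 10, outside the remaining clusters, the long starts had more cut sites than the short start. The counts were 18 against 9, 5 against 4, 11 against 7 and 2 against 0. In the immature neuron-like cluster 4 this was 2.59 CPM against 1.29 CPM, with exact Poisson 95% intervals of 1.53 to 4.09 and 0.592 to 2.46 CPM that overlap and cover counting error only.

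Cells with any cut site at the short start were few at an equal depth. After thinning each cell to 4000 cut sites, 1.10%, 1.57% and 1.91% of uninjured cells and 0.972%, 1.19% and 0.804% of injured cells had one. The groups overlapped (exact two-sided permutation p = 0.2), and they also overlapped without the shared barcodes. Unthinned, the shares were 6.61%, 5.62% and 9.22% against 5.01%, 4.76% and 5.76%. Over the libraries, 52 of 3625 cells of the remaining clusters had a cut site after thinning, or 1.43%. The immature neuron-like cells had one in 2 of 85, or 2.35% with a Wilson 95% interval of 0.648% to 8.18% that includes the share of the remaining clusters. The counts were 0 of 379 cells of cluster 7, which allows a share of up to 0.792%, and 0 of 189 sustentacular-like cells, which allows 1.59%. Median depths were 13465, 39733, 21740 and 12497 fragments in the same order.

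The sum of cut sites over each part of the locus did not separate the groups. The 100 kb upstream held 20.7 ± 5.3 CPM before and 19.5 ± 5.3 after injury (SD, n = 3, exact permutation p = 1). From the long to the short start the values were 45.2 ± 4.0 and 44.4 ± 5.6 CPM (exact permutation p = 1). From the short start to the end of the gene they were 98.6 ± 2.9 and 92.3 ± 5.4 CPM (exact permutation p = 0.3), and in the 100 kb downstream 26.3 ± 8.4 and 29.7 ± 6.6 CPM (exact permutation p = 0.8). Without the shared barcodes, which include the largest of injured replicate 2, the difference from the short start to the gene's end turned from -6.23 to 0.82 CPM, and that library moved from 88.9 to 105.5 CPM. With barcodes of at least 20% open cut sites this difference was -0.50 CPM. The downstream difference of 3.36 CPM ranged from 0.18 CPM without uninjured replicate 1 to 8.15 CPM without uninjured replicate 3.

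Single tiles of the locus did differ. Of 135 open tiles tested, 8 were higher and 1 was lower after injury at an edgeR adjusted p under 0.05. Over the genome 4.89% of open tiles were called higher and 1.5% lower, and the locus shares were 5.93% and 0.741%, so the locus as a whole lay near the background. Groups did not overlap in CPM in 17 tiles higher and 17 lower after injury, which is 12.6% each against 12.5% higher and 14.7% lower over the genome. The median log2 difference was 0.16 over the locus and -0.00079 over the genome. Of the 8 higher tiles, 4 lie downstream of the gene, 3 between the short start and the gene's end, and 1 between the starts. Tiles were chosen as open by their mean over both groups. Of the 8 higher tiles, 4 reached the open level of 0.271 CPM in the injured mean only, so they entered the test through the group in which they were high: those at chr16:25820001-25820500, chr16:25905001-25905500, chr16:25912001-25912500 and chr16:25951501-25952000. Among tiles that reached it in both groups, 4 of 109 at the locus were higher (3.67%) and 1 was lower, against 3.36% and 1.58% over the genome. With factors from 10 kb bins the locus had 5 higher and 2 lower tiles (3.70% and 1.48%, against 3.28% and 4.85% over the genome), and the genome split moved from 19857 higher and 6096 lower to 13299 higher and 19702 lower.

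**Figure D2:**
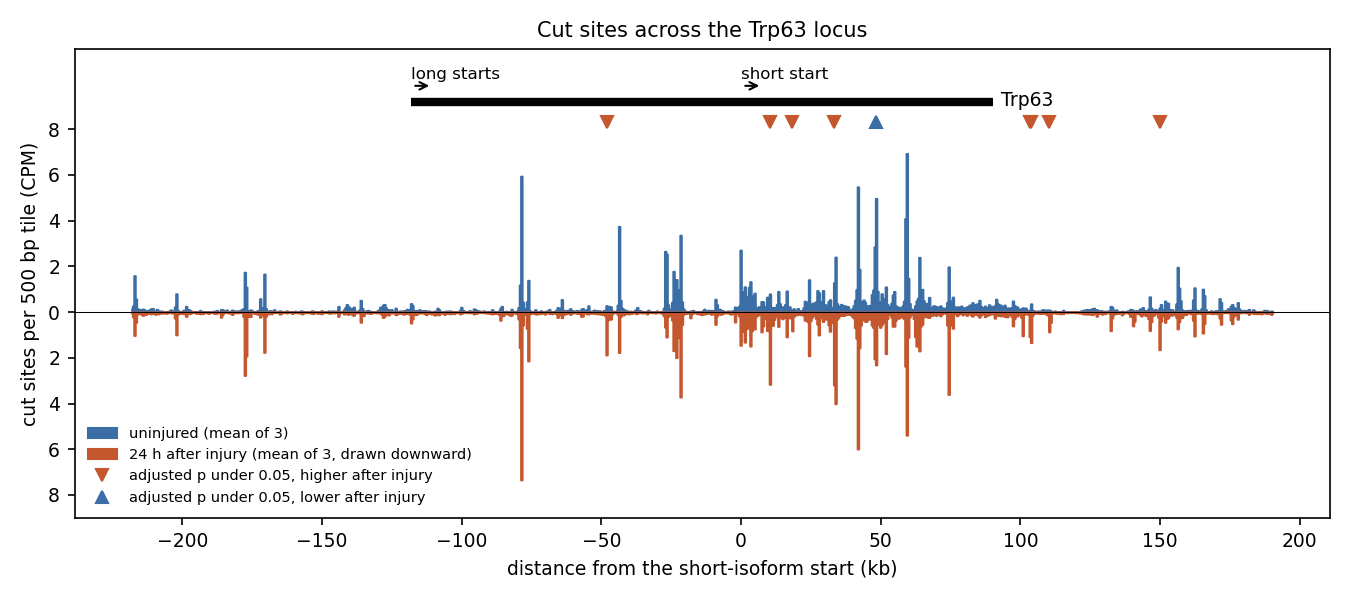
Mean cut sites per 500 bp tile in CPM across the Trp63 locus by distance from the short start in kb, uninjured upward and injured downward (means of 3 libraries each), with the gene as a bar and arrows at the starts. Triangles mark the 8 tiles called higher and the 1 called lower, of which the lower one at 48.3 kb is itself a tall peak and the higher one at 33.3 kb lies beside one.

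One of the called tiles downstream lies 13.1 kb past the gene's end (chr16:25905001-25905500), and its sequence above holds an AP-1 match. It held 1, 2 and 4 cut sites before injury and 66, 25 and 25 after it, or 0.0675, 0.0609 and 0.127 CPM and 1.47, 1.06 and 0.700 CPM. All 3 uninjured libraries were below all 3 injured ones. This tile and those at 20.1 and 59.6 kb past the gene's end were open in the injured mean only. They entered the test through the group in which they were high. Of such tiles 36.4% at the locus (4 of 11) and 23.3% over the genome were called higher, and 0% lower. At 13.1 kb the log2 difference was 3.71 ± 0.62 (SE, edgeR adjusted p 0.00689). It stayed past the threshold in all 18 alternatives that gave it a value. These alternatives reuse the same libraries and are not independent support. The next tile (chr16:25905501-25906000) had a mean of 0.362 ± 0.094 CPM before and 1.33 ± 0.45 CPM after injury (SD, n = 3), a log2 difference of 2.03 (adjusted p 0.0295) whose call was lost in 6 of 18 alternatives. At 20.1 kb past the gene's end (chr16:25912001-25912500) the counts were 0, 4 and 4 before and 50, 21 and 21 after injury. That was a log2 difference of 3.26 ± 0.69 (adjusted p 0.0180), and the call was lost in 4 of 16 alternatives. At 59.6 kb past the end (chr16:25951501-25952000) they were 0, 8 and 9 before and 130, 27 and 32 after, a log2 difference of 3.18 ± 0.72 (adjusted p 0.0246) whose call was lost in 4 of 18. The 4 losses at both tiles came without uninjured or injured replicate 1 or 2. In each of these tiles injured replicate 1 was the highest library. Fitted differences at counts this low depend on the prior count that edgeR adds.

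Within the gene, 4 tiles rose. The first lies in intron 1 (chr16:25753501-25754000), 48.2 kb before the short start. It stood at 0.0675, 0.366 and 0.412 CPM before and 2.85, 1.48 and 1.29 CPM after injury. The groups did not overlap, with a log2 difference of 2.75 ± 0.57 (adjusted p 0.0166). The call was lost in 3 of 18 alternatives, which each left out 1 library (the second uninjured, or the first or second injured one). At 10.3 kb past the short start, in intron 3 of Trp63-202 (chr16:25812001-25812500), the values were 0.675, 0.823 and 0.887 CPM before and 3.74, 3.97 and 1.76 CPM after. The log2 difference was 2.12 ± 0.41 (adjusted p 0.0129), and it lost its call in 3 of 18, when the first uninjured or the first or second injured library was left out. A tile over exon 4 of Trp63-202 (chr16:25820001-25820500) held 0, 7 and 4 cut sites before and 62, 11 and 22 after injury, a log2 difference of 2.78 ± 0.75 whose adjusted p of 0.0493 was just under the threshold. Its call was lost in 9 of 15 alternatives, with adjusted p-values up to 0.235. This tile, too, was open in the injured mean only and entered the test through that group. In intron 4 (chr16:25835001-25835500) the level was 1.28, 1.37 and 1.203 CPM before and 4.37, 2.87 and 2.32 CPM after, a log2 difference of 1.46 ± 0.35 (adjusted p 0.0307). Its call was lost in 5 of 18, with adjusted p-values up to 0.178. Here the uninjured libraries were close to each other and the injured ones spread over a range.

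The tile that fell lies in the same intron 4, 48.3 kb past the short start (chr16:25850001-25850500). It stood at 4.99, 5.24 and 4.69 CPM in the uninjured libraries and 1.83, 2.49 and 2.61 CPM in the injured ones. It was among the most open tiles of the locus before injury, and the groups did not overlap. The log2 difference was -0.996 ± 0.24 (SE, adjusted p 0.0315). In the remaining clusters alone it was -1.04 (edgeR adjusted p 0.0193), where the groups took their cells mostly from different clusters. Within cluster 3, which had at least 30 cells of each library, the groups overlapped. The tile stood there at 4.16, 3.90 and 3.21 CPM before and 1.26, 4.72 and 3.93 CPM after injury. The call was lost in 5 of 18 alternatives, among them barcodes with at least 20% open cut sites, with adjusted p-values up to 0.166. These 18 do not include the 2 alternatives that redraw the tiles. With the grid shifted by 250 bp or tiles merged into regions, 0 features of the locus were called lower. Over the genome 1.52% and 1.54% were.

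Leaving out single libraries changed how many tiles were called. Without uninjured replicate 1 or 2 the locus had 2 or 3 higher tiles, where 2.02% and 2.30% of tiles over the genome were called higher. Without uninjured replicate 3 it had 6 (genome 4.98%), and without injured replicate 1 or 2 it had 1 (genome 1.63% and 0.981%). Without injured replicate 3 it had 15 (genome 7.98%). Across these 6 fits the counts at the locus had the same order as the shares over the genome. The lower tile lost its call without uninjured replicate 1 or 2 and without injured replicate 1 or 2. Without the shared barcodes 9 tiles were higher and 1 was lower, against 5.34% and 1.67% of tiles over the genome. In the remaining clusters 13 of 107 tested tiles were higher and 1 was lower, where 9.24% of tiles over the genome were called higher and 3.77% lower.

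**Figure D3:**
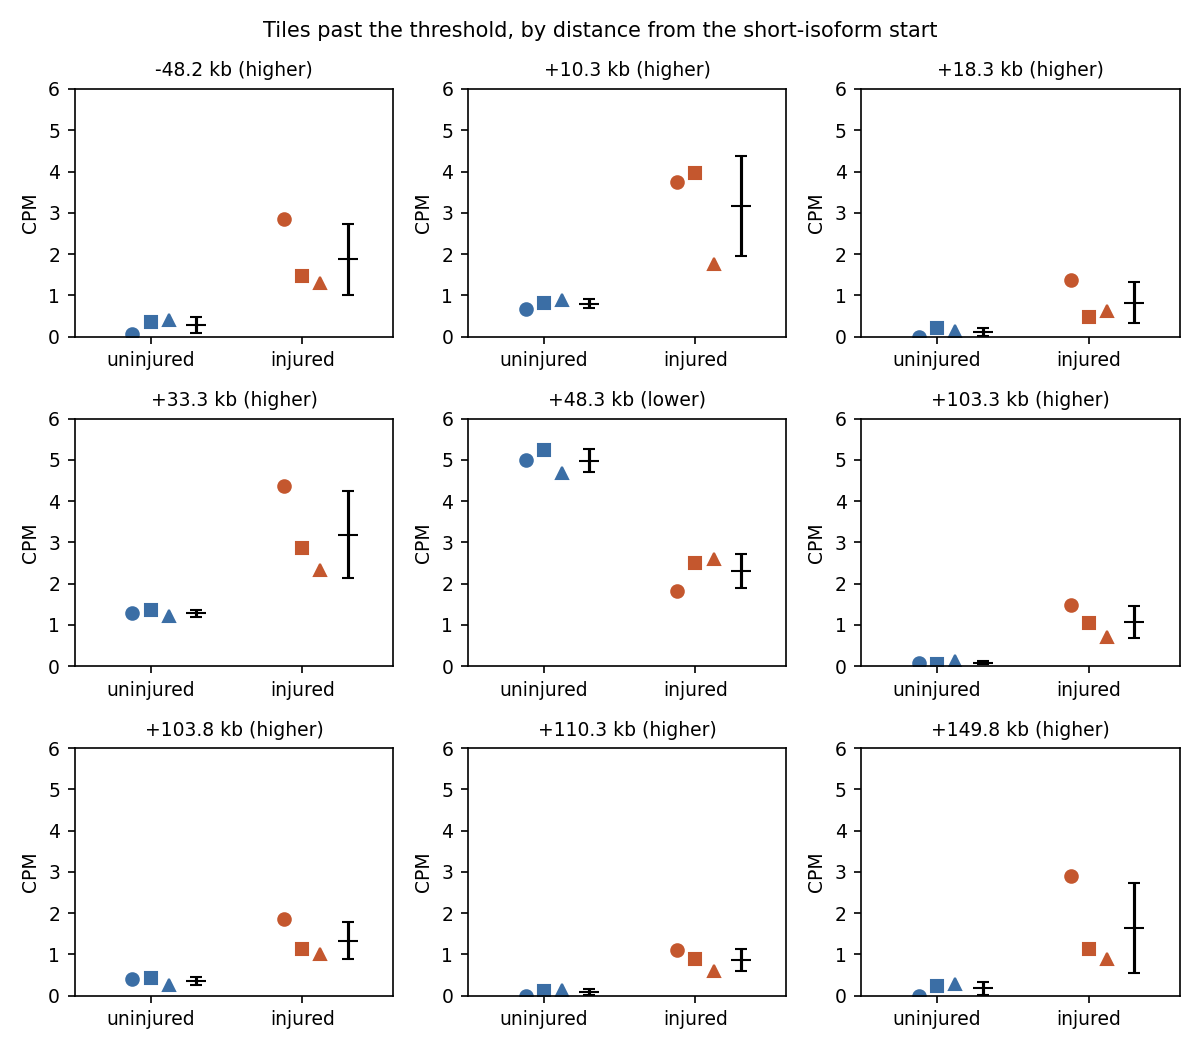
CPM of the 9 called tiles in each library (points, shaped by replicate as in the plot of the starts) with the mean and SD of 3 libraries (bars), each titled with its distance from the short start. Uninjured libraries sit at or below 1.37 CPM in the 8 tiles that rose and between 4.69 and 5.24 CPM in the 1 that fell.

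Regions were ranked by their mean CPM per tile, and the highest tile of each of the first 8 did not pass the test. The tile that fell belongs to a wider region with a lower mean per tile, and before injury it was more open than the highest tiles of several of these 8. The intron 1 tile 78.7 kb before the short start (chr16:25723001-25723500) had 6.88, 5.55 and 5.42 CPM before and 9.34, 6.29 and 6.39 CPM after injury, and its log2 difference was 0.45 ± 0.22 (adjusted p 0.303). The intron 4 tiles 41.8 and 59.3 kb past the start (chr16:25843501-25844000 and chr16:25861001-25861500) had means of 5.48 ± 0.40 and 6.94 ± 0.51 CPM before and 5.99 ± 1.1 and 5.38 ± 1.6 CPM after (SD, n = 3). Their log2 differences were 0.25 (adjusted p 0.554) and -0.24 (adjusted p 0.645). The intron 4 tile 33.8 kb past the start (chr16:25835501-25836000), next to a called one, had a log2 difference of 0.92 (adjusted p 0.203), and the tile at -43.7 kb (chr16:25758001-25758500) had -0.95 (adjusted p 0.109). Upstream of the gene, the tile at -177.7 kb (chr16:25624001-25624500) had 1.74 ± 0.38 and 2.77 ± 0.30 CPM (adjusted p 0.148).

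Among cell clusters the elements differed from each other, a description over pooled cells with no test. The downstream tile at 103.3 kb stood at 1.71 and 2.08 CPM in clusters 9 and 12, which were mostly injured, and at 0 to 0.436 CPM in the other remaining clusters. The tile at -48.2 kb had 2.86 and 4.84 CPM in clusters 9 and 12 and 0.255 to 1.02 CPM in the others. Cluster 5, also mostly injured, stood at 0.436 and 1.02 CPM at these tiles. Of the remaining clusters, the tile at 48.3 kb was highest in clusters 2 and 1, with 8.61 and 5.94 CPM, and it stood at 2.12 and 1.92 CPM in clusters 9 and 12. The order did not follow injury throughout. In cluster 5 the injured replicates stood at 3.64, 4.11 and 2.62 CPM at this tile. In cluster 11 uninjured replicate 3 stood at 2.86 CPM. The tile at 48.3 kb was also open in the immature neuron-like cluster 4 (7.19 CPM), although cluster 7 had 0.892 CPM. Doublet calls, which these pooled values keep, made up 41.18% of cluster 4 and 37.55% of cluster 2, but 0.63% of cluster 1. The tile at -26.7 kb (chr16:25775001-25775500) was led by cluster 3 with 7.59 CPM and cluster 11 with 4.15 CPM, against 0.143 CPM in cluster 2. Within cluster 3 it stood at 6.66, 9.74 and 11.2 CPM before and 3.77, 0.393 (1 cut site) and 5.90 CPM after injury, in groups that did not overlap. The tiles at -177.7 and 10.3 kb did not overlap there either, but were higher after injury. At -177.7 kb the values were 0.416, 0.557 and 0.534 CPM before and 2.09, 0.786 and 2.67 CPM after. They rest on 1, 2 and 5 cut sites before and 5, 2 and 19 after. At 10.3 kb the values were 1.25, 0 and 0.962 CPM before and 2.09, 1.57 and 2.39 CPM after. They rest on 3, 0 and 9 cut sites before and 5, 4 and 17 after. Injured replicates 1 and 2 had only 37 and 34 cells in cluster 3. How many of all open tiles do not overlap within cluster 3 was not counted. Every other named tile overlapped within cluster 3, the remaining called tiles among them. Over whole libraries the tile at -26.7 kb was highest in uninjured replicate 3 (4.78 CPM), which supplied 175 of the 518 cells of cluster 3. Its groups overlapped there (edgeR adjusted p 0.310).

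Of the 8 open tiles that lie wholly upstream of the gene, 3 had a higher level in the neuron-like cluster 7 than in the remaining clusters. At 170.7 kb before the short start (chr16:25631001-25631500) cluster 7 had 11.7 CPM (236 cut sites) and cluster 4 had 5.47 CPM, against 0.143 CPM in the remaining clusters. The tiles at chr16:25665501-25666000 and chr16:25629501-25630000 had 3.42 CPM (69 cut sites) and 2.48 CPM (50 cut sites) in cluster 7, against 0 and 0.014 CPM in the remaining clusters. By library the tile at -170.7 kb ranged from 0.549 to 2.70 CPM before and 0.624 to 3.89 CPM after injury, highest in injured replicate 3, which supplied the most cells of cluster 7. The part of the cell makeup in that order was not tested. In these libraries as a whole, fewer cells of a type and fewer cut sites per cell cannot be told apart.

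**Figure D4:**
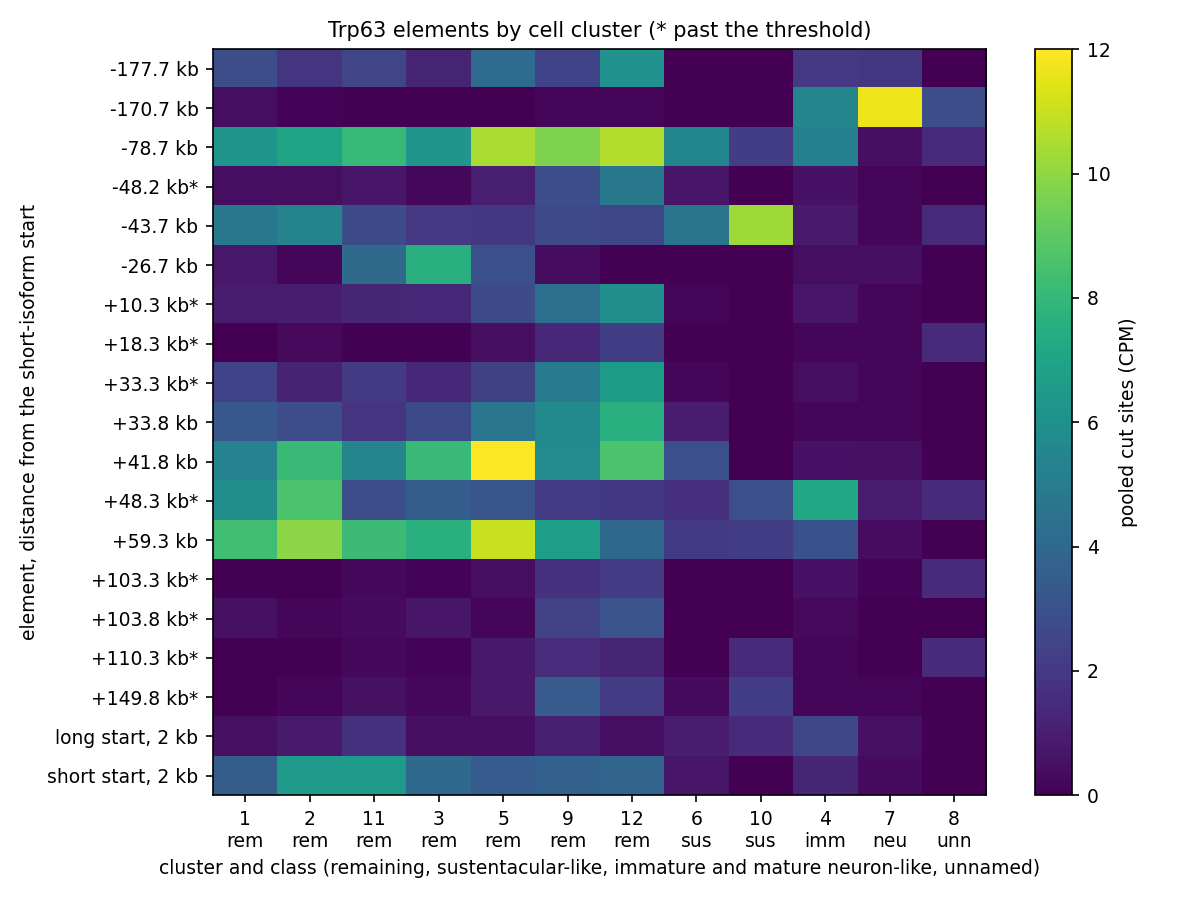
Pooled cut sites in CPM (colour) of the named tiles, labelled by distance from the short start, and of the start windows, across the 12 clusters with their class (rem, the remaining clusters). The tile at -170.7 kb is bright in cluster 7 (neu, neuron-like) and the tiles at -48.2 and 103.3 kb are brighter in clusters 9 and 12 than in clusters 1 and 2.

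AP-1 is a family of stress-responsive transcription factors. Among the 148 open tiles of the locus 20.3% held TGANTCA, against 20.2% of all open tiles. It was in 5 of the 8 tiles called higher and in the tile called lower it was absent. Over the genome 60.7% of tiles called higher and 7.12% of those called lower held it. The p63 core motif (CATGNNNNNNCATG, both strands) was in 5 of the 148 tiles, or 3.38%, against 1.91% of all open tiles. None of the 9 called tiles held one. Matches to TEAD (GGAATG), RUNX (TGTGGT) and GRHL (AACCNGTT) motifs were in 29.7%, 31.1% and 4.05% of the locus tiles, against 26.0%, 33.5% and 4.38%. A match is a description of the letters and not a bound site.

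Genes known as p63 targets were mostly not called at their most open start. Of 24 tested, 2 were higher and 1 was lower, where 2.48% of all genes' best starts were higher and 2.28% lower. The median log2 difference was -0.10, beside -0.0088 over all genes. The CPM values of single genes here and in the next paragraph are scaled to total cut sites. Their log2 differences are scaled by TMM, so the 2 can differ in size and direction. Igfbp3, an insulin-like growth factor binding protein, had 16.2 ± 2.2 CPM before and 21.2 ± 3.3 CPM after injury (SD, n = 3), in groups that overlapped, with a log2 difference of 0.67 (adjusted p 0.0221). The call was lost in 5 of 18 alternatives, with factors from 10 kb bins and without 1 of uninjured or injured replicates 1 and 2. Fat2, a protocadherin of epithelia, had 10.9 ± 1.4 and 13.9 ± 2.2 CPM (SD, n = 3), with a log2 difference of 0.64 (adjusted p 0.0340), and its call was lost in 8 of 18, among them the same 5, with an adjusted p up to 0.758. Runx1, a transcription factor, fell from 44.1 ± 2.1 to 27.8 ± 1.1 CPM, a log2 difference of -0.39 (adjusted p 0.00985) that held in all 18 alternatives. Among the most open members that were not called were Sfn, an adaptor protein, Fgfr2, a growth factor receptor of epithelia, and the basal keratin Krt14. Their log2 differences were -0.12, -0.15 and 0.38. Scaled to total cut sites, 1 target was higher and 12 were lower, where 2.54% and 37.8% of all genes' best starts were, and the medians were -0.38 for the targets and -0.28 for all genes. With factors from 10 kb bins 0 targets were higher and 15 were lower, beside 1.68% and 57.2% of all genes' best starts, with medians of -0.65 and -0.54.

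Of 10 regulators and relatives of p63, 0 were higher and 1 was lower in edgeR, and at an unadjusted p under 0.05 the counts were also 0 and 1. Over all genes' best starts 2.48% were higher and 2.28% lower at the adjusted p, and 10.7% and 13.2% at the unadjusted p. DESeq2 gave 0 higher and 1 lower, beside 4.37% and 4.32% of best starts. Mdm2, an E3 ubiquitin ligase, fell from 40.6 ± 2.7 to 26.8 ± 1.0 CPM (SD, n = 3), a log2 difference of -0.33 (adjusted p 0.0401). The call was lost in 8 of 18 alternatives, among them each of the fits without 1 of uninjured replicates 1 and 2 or of injured replicates 1 to 3. Ppp1r13l, Wwp1 and Fbxw7, among the other most open members, had log2 differences of -0.16, 0.07 and -0.03. Trp73 stood at 5.75 ± 0.82 and 4.89 ± 1.3 CPM, and its log2 difference was 0.02 (adjusted p 0.973).

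The genes most like the short start across clusters were Chst15, Capn1, Foxc1, Bnc1 and Bmp7, of 13148 genes compared. Their Pearson r of log2(CPM + 1) over 11 clusters ran from 0.975 to 0.986. The clusters share libraries and depth, so these are descriptions. Bnc1, which is also on the list of targets, had 18.5 CPM in cluster 2 and 2.78 CPM in cluster 7.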

How the data were processed

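Each library is a 10x scATAC-seq library of one biological replicate, as the labels describe them. The deposited fragment files list deduplicated fragments with a barcode and a count of read pairs. The submitters' processing notes name Cell Ranger 2.0.0 and mm10, while the file headers of the deposited peak matrices, not used here, give software version 1.2.0. Aligner settings are not stated in those sources. Both fragment ends were counted as cut sites as deposited, with no further shift, over barcodes with at least 2000 fragments.

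Cut sites were counted in start windows and open tiles and tested with edgeR 4.0.16 (quasi-likelihood, TMM, filterByExpr, Benjamini-Hochberg over all windows or tiles), with no replicate block. Shares and sums were tested by exact permutation. Cells with at least 20% of cut sites in open regions were clustered with scanpy 1.11.5 (30 components, 15 neighbours, Leiden resolution 0.5), and the limits that name clusters were set after seeing the data. Doublets (592 calls) were kept, and left out as an alternative. On simulated counts, 118 of 200 start windows changed by 1 log2 unit were recovered and 164 of 200 changed by 2. For tiles the numbers were 3 and 63 of 200. Each simulation changed only these 200 features, far fewer than the reported fits called.

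All 9 called locus tiles are named, with the highest tile of the 8 most open regions, all Trp63 starts, each called list member and up to 4 other most open ones, and the 5 most alike genes. Some items that this rule names are not reported here. Trp63, the lists and the motifs were chosen with earlier results of these data known. The alternatives were other scalings, filters, barcode sets, window sizes, grids, DESeq2 1.42.0, a replicate block and leaving out each library. The one without shared barcodes was added after seeing the data.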

Additional observations from a re-analysis of the deposited data

How the results depend on the processing

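The cause of each change below was not tested unless the alternative's own construction (fewer samples or tiles) gives it. With TMM factors from 10 kb bins the log2 difference of the long start reversed to -0.089. The short start was called lower at -0.97, where 48% of all start windows were called lower. The same setting gave 5 higher and 2 lower locus tiles (3.28% and 4.85% over the genome), 0 higher and 15 lower p63 targets and 9 lower regulators, against 8 and 1, 2 and 1, and 1 as reported, while 57.2% of all genes' best starts were called lower. Scaling to total cut sites gave 1 higher and 12 lower targets and 6 lower regulators, where 37.8% of all best starts were lower. Higher locus tiles numbered 13 in the 7 remaining clusters alone, 13 with DESeq2 and 4 as merged regions, beside 9.24%, 6.85% and 5.86% over the genome. Lower locus tiles numbered 2 with DESeq2, 3 without doublets, and 0 with barcodes of 20% open cut sites, a grid shifted by 250 bp or merged regions, beside 1.99%, 3.35%, 1.17%, 1.52% and 1.54%. Targets called higher numbered 1 without doublets or with 500 bp windows (2.40% and 2.55% of all best starts), and regulators called lower numbered 0 there and with barcodes of 20% open cut sites (1.66%, 1.53% and 1.81%). Leaving out 1 library at a time gave 1 to 15 higher locus tiles (0.981% to 7.98% over the genome) and 0 to 3 lower ones (0.112% to 2.32%), 0 to 3 higher targets (0.643% to 4.51% of all best starts) and 0 to 1 lower regulators (0.341% to 4.50%).

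The upstream difference reversed to 1.16 CPM without doublets and ranged from -4.13 to 1.06 CPM with 1 library left out. Between the starts it reversed to 0.83 CPM with barcodes of 20% open cut sites, 0.63 CPM in the remaining clusters and 0.66 CPM without shared barcodes, and ranged from -3.78 to 1.71 CPM with 1 library left out. From the short start to the gene's end it reversed to 0.82 CPM without shared barcodes.

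Pairing was judged on log2 CPM after the mean of each library's own group was subtracted. These correlations are of deviations from the group mean and do not measure how alike whole libraries are. The libraries were not treated as paired, because the deviations of same-numbered replicates 1 correlated below 0.1. For same-numbered libraries they correlated at 0.014, 0.171 and 0.208 over tiles and 0.041, 0.150 and 0.183 over start windows. Over start windows each uninjured library correlated best with its own number, while injured replicate 1 did not, and over tiles not every library did. With the replicate block the calls over all start windows went from 1809 higher and 1424 lower to 3276 and 4283. The locus then had 8 higher and 2 lower tiles (5.67% and 2.48% over the genome), and the short start had a log2 difference of -0.47 (edgeR adjusted p 0.258). In the simulation only 200 of the 372872 tiles tested were changed, and 3 of those changed by 1 log2 unit were called. The reported fit called far more tiles, 19857 higher and 6096 lower of 405907, which makes the adjusted threshold less strict. The simulated share therefore does not measure what the reported fit could detect.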
